A study of Mus musculus with 8 samples.

Results

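The potassium channel family was followed in GFP-positive cells of the embryonic cortex and lung. Members were all genes whose array annotation carries a Kcn symbol made of letters and a closing number, with Kcnj8 left aside, and 79 of the 18193 genes tested met this rule. Where several probe sets name only that gene, the one brightest on average across the 8 arrays stood for it. Of the 79 members, 65 encode channel-forming subunits and 14 encode auxiliary subunits, and 45 had more than 1 probe set. Another 12 genes of the RefSeq table carry such symbols and were not analysed here.

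The cells came from homozygous Tie2-GFP transgenic mouse embryos at E13.5, where green fluorescent protein is made under the Tie2 promoter, that of the endothelial receptor gene Tek. Cortex cleared of meninges and choroid plexus gave 4 arrays and lung gave 4, numbered 72, 22, 19 and 18 in each tissue, and each array held the sorted cells of 1 pooled litter of 10 to 13 embryos. Neither tissue was treated, and both groups carry the transgene, so the comparison is between organs and not between genotypes. The study names 4 litters for its 8 arrays, so cortex and lung arrays may share litters, and which do is not stated. The Tie2 promoter is also active in some blood cells, and the sort may take up other cells, so the arrays describe the sorted mixture. Titles, source names and tissue labels agree on the tissue, while the description field of 4 of the 8 samples, those numbered 19 and 18, names the other organ, and titles were used.

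Potassium channels let potassium leave the cell, which pulls the membrane towards more negative voltages. Voltage-gated channels open on depolarisation and shape neuronal firing, inward rectifiers and tandem-pore leak channels set the resting potential, and calcium-activated channels couple internal calcium to hyperpolarisation. In endothelium, calcium-activated and inwardly rectifying channels are known to carry the hyperpolarisation that spreads along vessels and relaxes smooth muscle, while in the developing cortex most families are known from neurons, progenitors and glia.

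The sorted mixtures of cortex and lung differed in their cell type markers. All values are log2 RMA values with no detection call, and 56 of the 79 members were dim, with a mean over the 8 arrays under 6.68, the median over all probe sets. The mean of 20 pan-endothelial markers spanned 9.77 to 11.58 in cortex and 11.55 to 12.04 in lung, with cortex 18 (9.77) and cortex 72 (10.14) lowest and 4 of 20 markers called, all higher in lung. The mean of 15 neuronal markers spanned 10.22 to 10.98 in cortex against 6.46 to 6.64 in lung, with 14 of 15 called higher in cortex, and that of 10 progenitor and glial markers from 9.86 to 10.52 against 6.97 to 7.22, with 8 called higher in cortex. The mean of 10 mesenchyme markers ran from 6.34 to 7.04 in cortex and from 7.83 (lung 18) to 10.38 (lung 72) in lung, with 7 called higher in lung. Microglial and macrophage markers spanned 5.85 to 8.61 in cortex, lowest on cortex 18, and 5.10 to 6.17 in lung, with 4 of 11 called, all higher in cortex. Markers of pericytes and smooth muscle (6.76 to 7.05 against 6.78 to 8.17), erythroid cells (7.04 to 7.66 against 6.39 to 6.77), megakaryocytes (5.35 to 7.02 against 5.64 to 6.27) and lung epithelium (6.36 to 7.65 against 6.93 to 8.07) had smaller gaps, with 2 called towards cortex and 3 towards lung of 11, 3 towards cortex of 10, 1 towards cortex of 6, and 1 towards cortex and 2 towards lung of 7. These small gaps of means hold large opposed differences of single genes. In the pericyte and smooth muscle list, Acta2 differed by -4.66 log2 units (cortex minus lung) and Vtn by 3.03. In the epithelial list, Krt18 differed by -3.94 and Sox9 by 2.88. The counts of all these marker lists stand beside 10.4% of all genes called towards cortex and 7.71% towards lung. Tek, whose promoter drives the reporter, averaged 11.70 ± 0.84 in cortex against 12.93 ± 0.28 in lung (SD, n = 4 each). In such bulk samples, fewer cells of a type and less RNA per cell cannot be told apart.

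**Figure D1:**
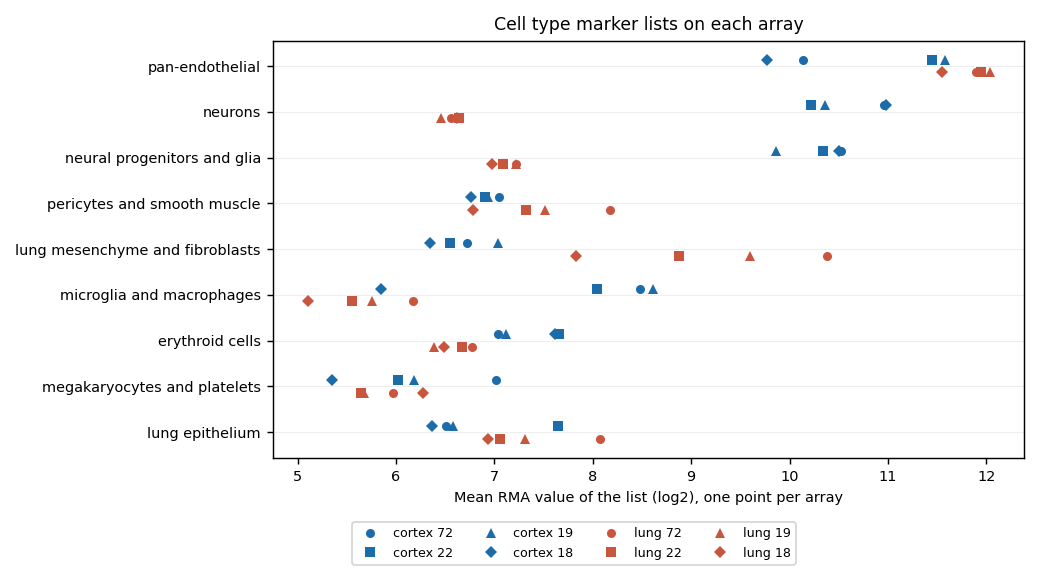
Mean log2 RMA value of each cell type marker list on the 4 cortex arrays (blue) and 4 lung arrays (red), with marker shape giving the sample number. The neuronal mean lies between 10.22 and 10.98 on the cortex arrays and between 6.46 and 6.64 on the lung arrays, while the mesenchyme mean lies between 7.83 and 10.38 on the lung arrays.

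Potassium channel genes split between the tissues, with more of the called ones higher in cortex. At an adjusted p under 0.05 (limma, two-sided, Benjamini-Hochberg over all 18193 genes), 18 of 79 members rose in cortex (22.8%), 6 rose in lung (7.59%) and 55 had no call. Over all genes tested, 10.4% were called towards cortex and 7.71% towards lung, or 18.1% in either direction. At least a 2-fold difference was called for 14 members towards cortex, against 7.89% of all genes, and for 4 towards lung, against 4.95%. Cortex and lung arrays were fully separate for 16 members with cortex above lung, against 12.5% of all genes, and for 9 with lung above cortex, against 12% of all genes. The median difference of the family was -0.01 log2 units (cortex minus lung), beside -0.09 over all genes, and single members ran from -3.48 for Kcnh1 to 2.91 for Kcnn1. Called or not, the mean was higher in cortex for 39 members and in lung for 40, beside 7545 and 10648 of all genes. Of the 23 members above the limit of 6.68, 43.5% were called in either direction, beside 23.8% of all such genes, and of the 56 below it 25%, beside 9.47%. The neuronal and glial marker means moved in the same direction as the calls towards cortex, and the mesenchyme and pan-endothelial means in the same direction as those towards lung. The part of these cells in the channel calls was not tested.

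The strength of these counts varied with the arrays and with the scaling. Leaving out lung 22 brought the count towards cortex to 11, with 8.09% of all genes then called that way. Leaving out cortex 72 or lung 19 brought the count towards lung to 3 or 2, with 5.5% or 5.25% of all genes called that way. The shares of all genes thus fell as well. Setting all arrays to 1 pan-endothelial mean moved the median of all genes by 1.12 log2 units and gave 29 members towards cortex and 1 towards lung, while 24% and 0.874% of all genes were then called. Without the samples numbered 19 and 18, whose description names the other organ, 3 members were called towards cortex (Kcnn1, Kcnn2 and Kcnj10) and 1 towards lung (Kcnh1, -3.14 log2 units, adjusted p = 0.0413). That fit has 2 arrays per tissue and called 458 (2.52%) and 197 (1.08%) of all genes. Without cortex 72 and 18, the arrays with the lowest endothelial means, 8 members were called towards cortex and 3 towards lung, beside 5.81% and 3.47% of all genes. Without lung 22 and 18, the arrays with the lowest mesenchyme means, the counts were 13 and 3, beside 7.51% and 7.56%. Of the 24 called members, 13 kept the call when any 1 of the 8 arrays was left out. They were Kcnn1, Kcnn2, Kcnd3, Kcnq3, Kcnj3, Kcng1, Kcnj10, Kcnf1, Kcnc1, Kcnip1 and Kcnk10 towards cortex and Kcnn4 and Kcnh1 towards lung. Kcnn1, Kcnn2 and Kcnh1 kept it under all 19 alternatives tried, and Kcnj10 under the 18 that measured it, since its dim mean takes it out of the fit without dim genes.

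**Figure D2:**
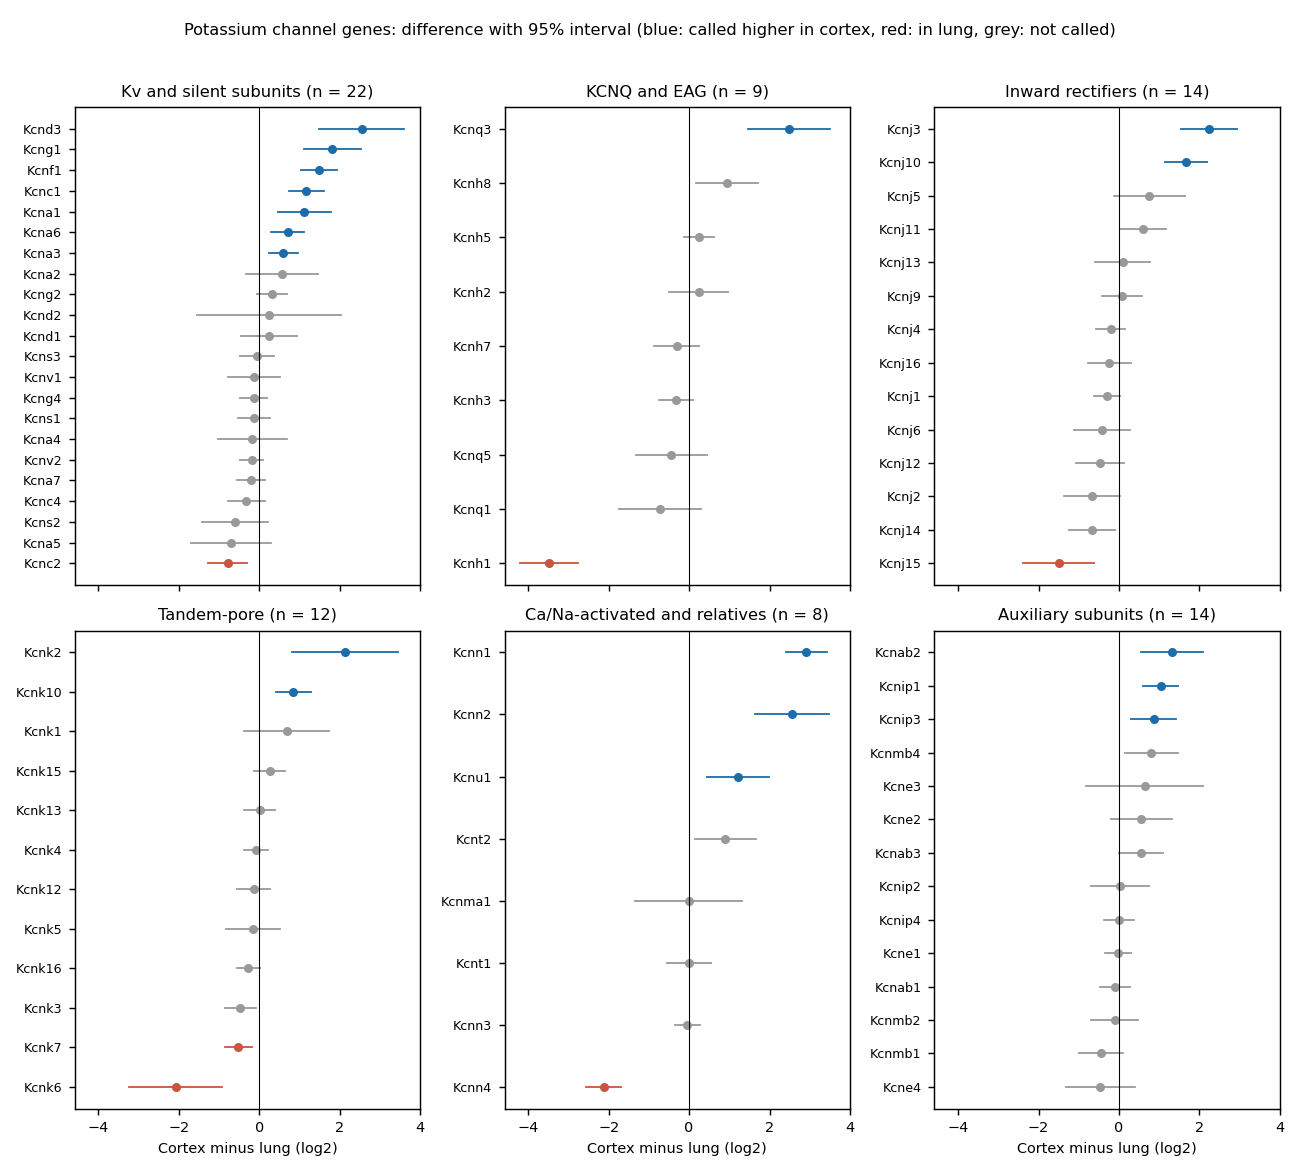
Cortex minus lung difference (log2) of all 79 members with its 95% confidence interval from the limma fit, by channel class, in blue where called higher in cortex, red where called higher in lung and grey where not called. Kcnn1 (2.91) and Kcnh1 (-3.48) mark the ends of the range, and after pan-endothelial scaling, which shifts all genes by about 1.12 towards cortex, the red genes other than Kcnh1 lose their call and Kcnk7 and Kcnc2 turn to the cortex side.

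Channels gated by calcium, and their sodium-activated and Slo relatives, held members at both ends. Of 8 measured, calls went towards cortex for 3 (Kcnn1, Kcnn2 and Kcnu1) and towards lung for 1 (Kcnn4), leaving 4 uncalled, with a class median of 0.44 log2 units. The shares were 37.5% and 12.5%, beside 10.4% and 7.71% of all genes. Kcnn1, a small-conductance channel known for the afterhyperpolarisation of neurons, lay at 9.36, 8.38, 8.41 and 8.87 on cortex arrays 72, 22, 19 and 18, and at 5.92, 5.84, 5.89 and 5.73 on the lung arrays in the same order. Every cortex array lay above every lung array, the lung arrays lay within a narrow band, and the difference was 2.91 ± 0.22 log2 units (SE), or 7.51-fold (adjusted p = 5.5e-05). Its second probe set also differed, by 1.60 log2 units with an adjusted p under the same limit. Kcnn2, the next member of the small-conductance group, lay at 9.16, 9.57, 7.51 and 8.84 in cortex and 6.48, 6.22, 5.87 and 6.30 in lung. Cortex 19 was the lowest cortex array and still above all lung arrays, and the difference was 5.87-fold towards cortex (adjusted p = 0.00283).

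Both channels of this class best known from endothelium lacked a call towards cortex. Kcnn4, the intermediate-conductance channel known from endothelium, red cells and lymphocytes, lay at 6.81, 6.36, 6.34 and 6.88 on the cortex arrays and 8.40, 8.99, 8.68 and 8.81 on the lung arrays. The tissues did not overlap, each with a small spread (SD 0.29 and 0.25), and the difference was -2.12 ± 0.19 log2 units, 4.36-fold towards lung (adjusted p = 0.000134), with a second probe set called at -1.50. After pan-endothelial scaling Kcnn4 was still on the lung side but had no call (adjusted p = 0.144). Kcnn3, the small-conductance channel known from endothelial hyperpolarisation, lay at 6.67 ± 0.15 in cortex and 6.72 ± 0.14 in lung (mean ± SD, n = 4 each), and its arrays overlapped. The difference of -0.05 log2 units had a 95% interval of -0.36 to 0.27 (adjusted p = 0.838). The 4 genes of the small-conductance and intermediate-conductance family thus gave 2 calls towards cortex, 1 towards lung and 1 gene without a call.

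The large-conductance relatives were less settled. Kcnma1, the BK channel best known from smooth muscle and neurons, lay at 5.94, 6.13, 7.22 and 7.39 in cortex and 5.44, 7.11, 6.11 and 8.06 in lung. The tissues overlapped fully, with lung 18 highest and lung 72 lowest, and the interval of the difference ran from -1.34 to 1.31 log2 units (adjusted p = 0.991). Kcnu1, a Slo relative known from sperm, lay at 6.65, 5.13, 5.64 and 6.29 in cortex against a lung mean of 4.72 ± 0.36 (SD, n = 4). All 4 cortex arrays were above the lung arrays, cortex 22 by the smallest margin, and the 2.32-fold difference was called (adjusted p = 0.0397). The call was lost when any 1 of cortex 72, 19 and 18 and of the 4 lung arrays was omitted, the difference then being 0.97 to 1.31 log2 units, and with arrays centred on their medians.

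Voltage-gated channels of the Shaker, Shaw and Shal subfamilies, with the silent subunits, formed the largest class, in which no Shab channel was among the members. Of 22 measured, 7 rose in cortex (31.8%, beside 10.4% of all genes) and 1 in lung (4.55%, beside 7.71%), leaving 14 uncalled, with a median of 0.09. Without cortex 22 or without lung 22, 4 rose in cortex, while 8.8% or 8.09% of all genes were called that way. Kcnd3, a Shal channel that carries fast transient current, lay at 11.30, 10.91, 10.49 and 11.54 in cortex and 9.48, 8.06, 9.13 and 7.36 in lung. The cortex arrays were high throughout and the lung arrays spread widely, with lung 72 and 19 above lung 22 and 18, and the difference was 5.86-fold towards cortex (adjusted p = 0.00584). Its 3 other probe sets had differences of -0.06 to 0.62 without a call. Kcnd2, a Shal channel named here after its values were seen, showed the opposite order of lung arrays, at 4.38, 7.64, 4.99 and 8.02 against 6.42, 6.59, 6.18 and 6.83 in cortex. Lung 22 and 18 lay above every cortex array and lung 72 and 19 below, so the gene was not called (adjusted p = 0.85), although another of its probe sets was called at 1.82.

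Silent subunits form no channel alone but change the gating of Shab channels. Of 9 measured, 2 were called, both towards cortex, beside 10.4% of all genes called that way. Kcng1 lay at 7.82, 6.37, 6.59 and 7.12 in cortex and 5.47, 4.94, 5.10 and 5.11 in lung, and Kcnf1 at 7.03, 6.46, 6.14 and 6.58 in cortex with a lung mean of 5.08 ± 0.13 (SD, n = 4). Both had every cortex array above every lung array, with cortex 72 highest. Kcng1 was 3.53-fold (adjusted p = 0.00389) and Kcnf1 2.79-fold higher in cortex (adjusted p = 0.00108). The single other probe set of each gave -0.10 and -0.17 without a call. The other silent subunits (Kcng2, Kcng4, Kcns1 to Kcns3, Kcnv1 and Kcnv2) had differences between -0.61 and 0.32.

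Among Shaker and Shaw channels, the differences were smaller. Kcnc1, a Shaw channel known from fast-spiking neurons, lay at 6.98, 6.31, 6.80 and 7.03 in cortex and 5.62, 5.36, 5.75 and 5.70 in lung, without overlap. Its cortex level was 2.26-fold that of lung (adjusted p = 0.00314), with 2 of its 3 other probe sets called the same way. Kcna1, an axonal Shaker channel, lay at 7.14, 6.31, 5.92 and 6.09 against 5.34, 5.37, 5.54 and 4.72, again without overlap, and stood 2.18-fold above lung in cortex (adjusted p = 0.0301). That call was lost when any 1 of cortex 22 and lung 72, 22 and 18 was omitted, the difference then being 0.95 to 1.17 log2 units, while 2 of 3 other probe sets were called towards cortex, up to 2.09.

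Kcna3, a Shaker channel best known from lymphocytes and microglia, lay at 5.19, 5.36, 5.26 and 5.58 in cortex and 4.45, 4.81, 4.77 and 4.93 in lung, low values that did not overlap (1.52-fold, adjusted p = 0.0285). The microglial and macrophage mean was 8.48, 8.04, 8.61 and 5.85 on the same cortex arrays and 5.10 to 6.17 on the lung arrays. Kcna3 was highest on cortex 18, the cortex array with the lowest microglial mean. The part of microglia in the Kcna3 difference was not tested. The call of Kcna3 was lost when any 1 of cortex 22 and 18 and lung 72, 22 and 19 was omitted, the difference then being 0.51 to 0.63 log2 units. Kcna6, named to complete the called members, was 1.63-fold higher in cortex (adjusted p = 0.0267). It lost the call on omission of cortex 72, 22 or 19 or of lung 22, 19 or 18 (0.62 to 0.72 log2 units) or when averaged over its 3 probe sets, with a variance trend and robust eBayes, and with the sample number as a block (adjusted p = 0.0536). Kcnc2 was the 1 member of the class higher in lung, at 6.80, 7.06, 7.74 and 7.05 against 6.35, 6.27, 6.26 and 6.63 in cortex (1.72-fold, adjusted p = 0.0354). Its call was lost when any 1 of the same arrays as that of Kcna6 was omitted, the difference then being -0.82 to -0.59 log2 units. It was also lost with the sample number as a block (adjusted p = 0.0664), and its sign turned after pan-endothelial scaling (0.33).

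The KCNQ and ether-a-go-go channels held the largest difference of the family towards lung. Of 9 measured, 1 rose in cortex (11.1%, beside 10.4% of all genes) and 1 in lung (11.1%, beside 7.71%), leaving 7 uncalled, with a median of -0.31. Kcnh1, the ether-a-go-go channel known from brain and from dividing cells, lay at 9.60, 8.58, 9.27 and 9.16 on the lung arrays and 6.24, 5.66, 4.90 and 5.89 on the cortex arrays. The gap between the lowest lung and the highest cortex array was wider than the range within either tissue, and the difference was -3.48 ± 0.32 log2 units, 11.2-fold towards lung (adjusted p = 0.000137). The second probe set was called at -2.13, the difference lay between -3.67 and -3.22 with any 1 array left out, and pan-endothelial scaling left it at -2.36 (adjusted p = 0.000449). Among lung arrays Kcnh1 was highest on lung 72, which also had the highest mesenchyme mean, and lowest on lung 22, while lung 18, with the lowest mesenchyme mean of 7.83, stayed at 9.16. The part of mesenchymal cells in this difference was not tested.

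Kcnq3, a subunit of the neuronal M-current, lay at 9.60, 9.09, 8.36 and 9.41 in cortex and 5.78, 7.19, 5.98 and 7.59 in lung. All cortex arrays were above all lung arrays, the lung arrays fell into a higher pair (22 and 18) and a lower pair (72 and 19), and the difference was 5.59-fold towards cortex (adjusted p = 0.00577). Its other probe set gave 0.53 without a call. Kcnq1, named after its values were seen, lay at 6.98, 7.84, 8.09 and 5.99 in cortex and 8.37, 7.42, 8.19 and 7.81 in lung without a call (adjusted p = 0.308), and the Shaker channel Kcna5 had a like order on the cortex arrays, at 6.84, 7.37, 7.74 and 5.77 (adjusted p = 0.313). In both, cortex 18 and 72 were the lowest arrays, as they were for the pan-endothelial mean (9.77 and 10.14). The part of endothelial content was not tested.

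Inward rectifiers were called about as often as all genes. Of 14 measured, 2 rose in cortex (14.3%, beside 10.4% of all genes) and 1 in lung (7.14%, beside 7.71%), leaving 11 uncalled, with a median of -0.22. Kcnj3, a channel opened by G-protein beta-gamma subunits, lay at 7.88, 6.66, 7.71 and 8.04 in cortex and 4.93, 5.29, 5.61 and 5.50 in lung. The tissues did not overlap, and the difference was 4.72-fold towards cortex (adjusted p = 0.00135). Its 3 other probe sets lay between -0.28 and 0.58 without a call, and averaged over the 4 probe sets the gene lost its call (0.69). Kcnj10, the glial rectifier that takes up potassium around neurons, lay at 7.61, 7.61, 6.74 and 7.03 in cortex and 5.85, 5.59, 5.40 and 5.49 in lung. Every cortex array was above every lung array, and the difference was 3.17-fold towards cortex (adjusted p = 0.00126). The progenitor and glial mean was 10.52, 10.34, 9.86 and 10.50 on the same cortex arrays, and its part in the difference was not tested.

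Kcnj15 was the rectifier higher in lung, at 7.53, 6.11, 7.04 and 6.27 against 4.71, 5.92, 5.53 and 4.80 in cortex. Lung 72 and 19 stood above lung 22 and 18, as in the mesenchyme mean (10.38 and 9.60 against 8.88 and 7.83), a relation that was not tested, and the lowest lung array was close to the highest cortex array. The difference was 2.82-fold (adjusted p = 0.0288). Its call was lost when any 1 of cortex 72 and 18 and lung 72 and 19 was omitted, the difference then being -1.40 to -1.23 log2 units, as it was with that block (adjusted p = 0.065) and under pan-endothelial scaling (-0.38). Kcnj2, the strong rectifier known from capillary endothelium and muscle, had low values that overlapped, at 4.53, 4.88, 4.63 and 4.26 in cortex and 4.58, 4.85, 5.55 and 5.96 in lung. Its difference of -0.66 log2 units had a 95% interval of -1.36 to 0.03 (adjusted p = 0.178).

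Tandem-pore leak channels were called in both directions. Of 12 measured, 2 rose in cortex (16.7%, beside 10.4% of all genes) and 2 in lung (16.7%, beside 7.71%), leaving 8 uncalled, with a median of -0.11. With so few genes these shares are uncertain. Kcnk2, a leak channel opened by stretch and lipids that is known from neurons and brain vessels, lay at 8.19, 7.50, 5.87 and 7.20 in cortex and 6.34, 4.28, 5.20 and 4.43 in lung. Cortex 19 lay below lung 72, so the tissues overlapped, and the 4.38-fold difference was called with a wide interval of 0.82 to 3.44 log2 units (adjusted p = 0.035). The call was lost when any 1 of cortex 72, 22 and 18 and lung 22, 19 and 18 was omitted, the difference then being 1.80 to 2.18 log2 units. Its close relative Kcnk10, named to complete the called members, was 1.8-fold higher in cortex (adjusted p = 0.0154), with another probe set called at 2.61.

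Kcnk6, a weakly rectifying leak channel, lay at 9.05, 8.80, 8.98 and 8.90 in lung and 7.07, 7.66, 7.53 and 5.13 in cortex. The lung arrays lay close together while cortex 18 fell well below the other cortex arrays, and the difference was 4.24-fold towards lung (adjusted p = 0.022). Cortex 18 had the lowest pan-endothelial mean (9.77), and the part of this in the low value was not tested. The call ended without lung 19 (-2.07 log2 units, adjusted p = 0.0562), and pan-endothelial scaling, at -0.96, ended it too. Kcnk7, a relative that gives no current alone, lay at 5.72, 5.72, 5.70 and 5.66 in cortex and 5.96, 6.14, 6.26 and 6.52 in lung, low values with a small called difference (1.43-fold, adjusted p = 0.0418). That call was lost when any 1 of the arrays other than lung 72 was omitted, the difference then being -0.55 to -0.42 log2 units. It was also lost with that block (adjusted p = 0.0789), and its sign turned after pan-endothelial scaling (0.60). Kcnk3, an acid-sensitive leak channel known from pulmonary artery, lay at 6.62 ± 0.18 in cortex and 7.09 ± 0.25 in lung (mean ± SD, n = 4 each). Its arrays did not overlap, yet the difference of -0.47 log2 units was not called (adjusted p = 0.0875).

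**Figure D3:**
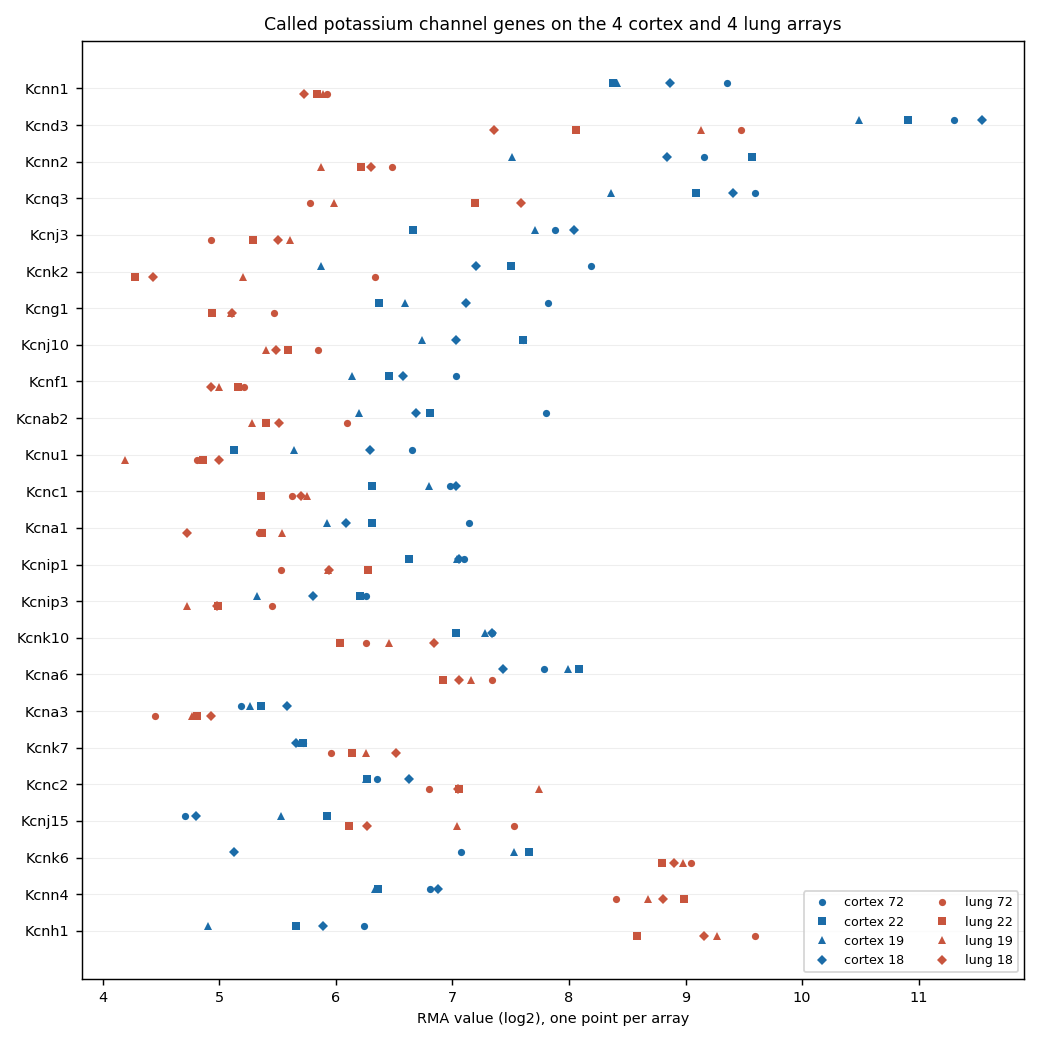
Log2 RMA value of each of the 24 called members on the 4 cortex arrays (blue) and the 4 lung arrays (red), with marker shape giving the sample number, to be compared within a gene and not between genes. Kcnh1 runs from 8.58 to 9.60 on lung arrays and from 4.90 to 6.24 on cortex arrays, and Kcnk2 and Kcnip3 are the called members whose tissues overlap.

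Auxiliary subunits bind channels and set their gating or traffic. Of 14 measured, 3 rose in cortex (21.4%, beside 10.4% of all genes) and 0 in lung (beside 7.71%). The other 11 had no call, and the class median was 0.29. Leaving out any 1 of cortex 22 and 18 and lung 22, 19 and 18 left 1 call, while 8.09% to 8.97% of all genes were called towards cortex. Kcnab2, a beta subunit of Shaker channels, lay at 7.80, 6.81, 6.20 and 6.69 in cortex and 6.10, 5.40, 5.28 and 5.51 in lung. Cortex 19 was only just above lung 72, and the 2.47-fold difference was called (adjusted p = 0.0291), a call that was lost when any 1 of cortex 22 and 18 and lung 22, 19 and 18 was omitted, the difference then being 1.21 to 1.37 log2 units. Kcnip1, a calcium-binding partner of Shal channels, lay at 7.10, 6.63, 7.04 and 7.06 in cortex and 5.53, 6.28, 5.93 and 5.94 in lung, without overlap, and was 2.05-fold higher in cortex (adjusted p = 0.0062). Its other probe sets gave 0.58, 1.51 and 3.23, 2 of them called.

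Kcnip3, a calcium-binding partner of Shal channels that is also known as a transcriptional repressor, lay at 6.26, 6.21, 5.32 and 5.80 against 5.45, 4.99, 4.72 and 4.98. Cortex 19 lay below lung 72, and the 1.82-fold difference was close to the limit (adjusted p = 0.0434). The call was lost when any 1 of cortex 72, 22 and 18 and lung 22, 19 and 18 was omitted, the difference then being 0.74 to 0.89 log2 units, and with arrays centred on their medians. Kcne4, a single-pass subunit, had the lowest difference of the class, with 4.98 ± 0.23 in cortex against 5.43 ± 0.84 in lung (adjusted p = 0.445), with lung 72 (6.62) alone above the others. Kcne3, a single-pass partner of KCNQ channels named after its values were seen, spread widely within cortex, at 8.91, 9.17, 11.14 and 7.95 against 9.41, 7.96, 9.08 and 8.16 in lung (adjusted p = 0.527).

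The choice of probe set mattered for several members. Of the 24 called members, 16 had further probe sets, 28 in all. Of these 28, 21 had the same sign as the chosen one and 11 were called the same way over all 45037 probe sets, in 8 genes. For 7 of the 16 genes at least 1 further probe set had the opposite sign. Among the 29 uncalled members with several probe sets, 2 (Kcnd2 and Kcna2, at 1.82 and 1.02) had another probe set called towards cortex. The probe set with the highest mean was thus not always the one with the largest difference, as for Kcnip1, Kcnk10 and Kcna1, and for the other 8 of the 16 genes (Kcnd3, Kcnq3, Kcnj3, Kcng1, Kcnf1, Kcnab2, Kcna6 and Kcnj15) no second probe set was called.

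**Figure D4:**
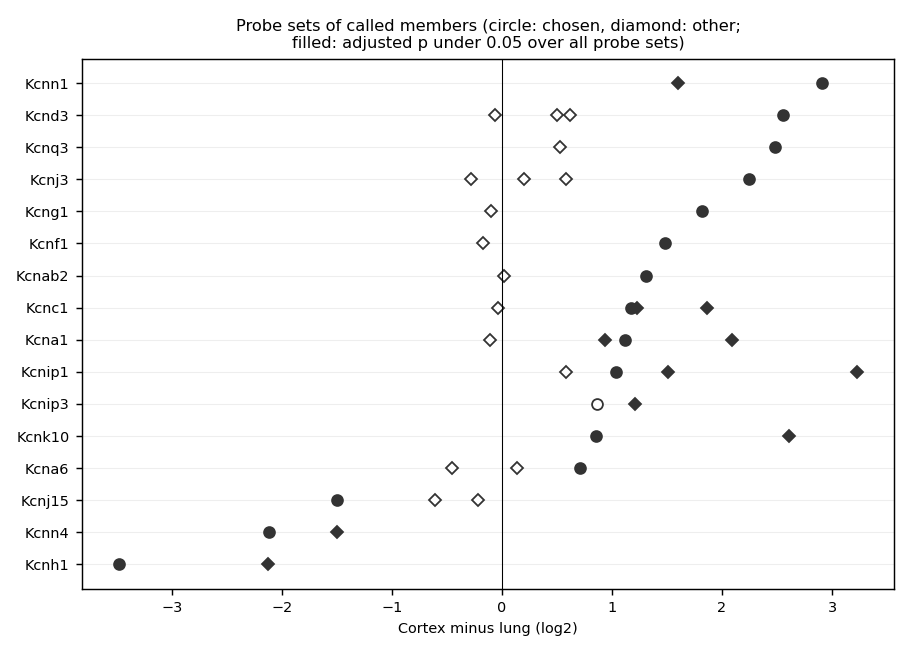
Cortex minus lung difference (log2) of every single-gene probe set of the 16 called members that have several, with circles for the chosen probe set, diamonds for the others and filled symbols for an adjusted p under 0.05 over all probe sets. Kcnh1, Kcnn4 and Kcnn1 have a filled diamond on the same side as the circle, while the diamonds of Kcnd3 lie between -0.06 and 0.62, and under pan-endothelial scaling, not drawn here, differences move towards cortex with all genes.

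Partners of the channels were called towards both tissues, and their counts stand beside 10.4% of all genes called towards cortex and 7.71% towards lung. Of 12 measured accessory proteins, 7 rose in cortex and 5 had no call, with Cntnap2, which clusters Shaker channels on axons, 6.05-fold higher in cortex (11.88 ± 0.37 against 9.28 ± 0.27, adjusted p = 9.6e-05). Of 16 HCN, sodium and calcium channel genes, 7 rose in cortex and 9 were not called, with the calcium channel Cacna1e 16.7-fold higher (10.15 ± 0.09 against 6.09 ± 0.67, adjusted p = 4.6e-05). Of 10 genes of the sodium-potassium pump and of cotransporters, 2 rose in cortex and 2 in lung. The pump subunit Atp1b2 differed 7.49-fold towards cortex (adjusted p = 0.000895) and the potassium-chloride cotransporter Slc12a4 was 2.81-fold higher in lung (adjusted p = 0.0112). Of 14 genes for endothelial calcium entry and electrical coupling, 4 rose in lung and 10 had no call. Cav1, the caveolar scaffold, was the furthest apart, with 12.49 ± 0.41 in lung against 9.60 ± 1.31 in cortex (adjusted p = 0.00994). The medians of these lists were 1.06, 1.40, 0.07 and -0.55 log2 units, beside -0.09 over all genes.

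Position in the genome and promoter composition were features that the rule did not use. In the RefSeq annotation of assembly GRCm38.p6, 9 pairs of members lie next to each other with no other protein-coding gene starting between them. In 1 pair, Kcna1 and Kcna6, both genes rose in cortex, in 5 pairs 1 gene was called and in 3 none was. Kcnj10 (1.66) lies next to Kcnj9 (0.07), and Kcnj15 (-1.50) next to Kcnj6 (-0.42), so neighbours of a called rectifier were not called with it. RefSeq promoter windows (250 bases before to 50 after a start) were found for 60 of 79 members, with 85 starts. Medians were taken over windows, so a gene with several starts counts several times. The median was 11.5 CpG dinucleotides over the 24 windows of the 13 matched members called towards cortex. It was 5.5 over the 8 windows of the 5 matched members called towards lung, with ranges that overlap (3 to 41 and 2 to 27). The 53 windows of uncalled members had a median of 9.0, beside 7.0 over all 32851 starts.

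The 250 bases upstream of the first listed start are shown for a pair of matched members called towards each tissue (GRCm38.p6). CpG dinucleotides are in capitals, to set the composition of the windows side by side. The pairs are not a strict ranking, since Kcnn2, 5.87-fold higher in cortex, is not shown while Kcnd3, at 5.86-fold, is. Kcnn1 and Kcnd3 rose in cortex, and Kcnh1 and Kcnn4 were higher in lung. The windows are Kcnn1 chr8:70863259-70863508 (minus strand), Kcnd3 chr3:105451640-105451889 (plus strand), Kcnh1 chr1:192190527-192190776 (plus strand) and Kcnn4 chr7:24370013-24370262 (plus strand), each written 5′ to 3′ along the gene.
Kcnn1: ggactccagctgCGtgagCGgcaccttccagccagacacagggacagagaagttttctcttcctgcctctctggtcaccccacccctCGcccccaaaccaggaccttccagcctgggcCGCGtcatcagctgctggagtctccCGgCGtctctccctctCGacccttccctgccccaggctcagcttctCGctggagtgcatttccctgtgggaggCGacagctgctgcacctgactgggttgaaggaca
Kcnd3: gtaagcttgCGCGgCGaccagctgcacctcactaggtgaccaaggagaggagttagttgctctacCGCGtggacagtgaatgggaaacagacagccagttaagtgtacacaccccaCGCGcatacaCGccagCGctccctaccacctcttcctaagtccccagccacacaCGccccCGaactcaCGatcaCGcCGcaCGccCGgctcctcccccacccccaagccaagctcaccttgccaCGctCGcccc
Kcnh1: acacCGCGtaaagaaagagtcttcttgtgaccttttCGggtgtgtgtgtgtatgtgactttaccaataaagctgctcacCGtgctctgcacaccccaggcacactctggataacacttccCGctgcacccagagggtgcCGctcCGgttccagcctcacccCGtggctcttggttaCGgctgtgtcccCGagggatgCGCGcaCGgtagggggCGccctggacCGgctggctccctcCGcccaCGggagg
Kcnn4: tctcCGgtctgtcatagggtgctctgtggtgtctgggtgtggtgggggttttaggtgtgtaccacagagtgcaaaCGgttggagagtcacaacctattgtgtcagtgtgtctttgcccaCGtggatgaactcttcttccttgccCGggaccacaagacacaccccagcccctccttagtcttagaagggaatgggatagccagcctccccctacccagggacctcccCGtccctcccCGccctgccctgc
These stretches hold 10, 18, 17 and 6 CpG dinucleotides, so the lung-called Kcnh1 has nearly as many as the cortex-called Kcnd3. The left-hand part of the element bound by the neuronal repressor REST (TCAGCACC, either strand) was found in 0 of 85 member windows and 1.65% of all windows, and the right-hand part (GGACAGC) in 10 of 85 (11.8%) and 6.56% of all, among called members at Kcnip3 and Kcnk10. An ETS-type motif (CAGGAAG) was found in 16 of 85 member windows (18.8%) and 13.3% of all, with 6 of the 24 windows of cortex-called members and 0 of only 8 of lung-called ones, too few to read a difference from. These matches describe letters in the windows and were not tested against expression.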

How the data were processed

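Per the labels' protocols, amplified RNA of the sorted cells was read on Affymetrix mouse arrays. The authors deposited log2 values per probe set, and RMA and the affy package are named in the submitters' processing notes (versions not given in the sources used here). RMA brings array distributions close together, so differences are relative, and it compresses differences of dim probe sets. The deposited values still differed in spread, with an SD of 2.39 on lung 22 and 2.37 on lung 18, against 2.46 to 2.54 on the other arrays. The part of this in differences between lung arrays was not tested. All 8 columns were mapped by sample identifier.

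Of 45101 probe sets, 64 controls were left out, 34945 of the rest named 1 gene, 932 several, and 9160 were unnamed here. The tissue difference was fitted by limma 3.58.1 (lmFit and eBayes, no block, R 4.3.3), and the fit was tested on simulated data. There it called 34 of 100 genes changed by 1 log2 unit and 79 of 100 changed by 2, with 7 false among 120 calls. The simulation changed 200 of 18193 genes, while 18.1% of genes were called in the data. Because the Benjamini-Hochberg limit depends on the share of changed genes, these rates do not give the power of the real comparison. A member without a call may still differ between the tissues. Array number, 4 per tissue, limits precision. Members named were all those called (at most 15 per direction), the extremes of each of the 6 classes, and 8 genes known from vessels or glia. Members and lists were chosen with earlier results of these data known. Alternatives changed the scaling, the choice of probe set, the filter on dim genes, the variance model, array weights, a block on sample number and the arrays included. The labels give 4 litters and do not say whether equal sample numbers share one.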

Additional observations from a re-analysis of the deposited data

Results flagged for a closer look

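Each tissue of the 27 named members was checked for a single array standing apart from the other 3, and 2 of 54 groups had one, where chance gives about 1 in 20. Kcnip1 lay at 6.63 on cortex 22, below the 7.04 to 7.10 of the other cortex arrays, and Kcnk3 lay at 6.35 on the same array, below 6.69 to 6.73. Cortex 22 had a pan-endothelial mean of 11.45 and, at 10.22, the lowest neuronal mean of the cortex arrays. Cortex 19, at 11.58 and 10.36, was near it in both means and did not stand apart for these genes. The part of cell content in the low values was not tested. Without cortex 22, the call of Kcnip1 stayed.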

How the results depend on the processing

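Counts of calls were 18 towards cortex and 6 towards lung as reported. Pan-endothelial scaling gave 29 and 1, with a median of 1.11, and by class 4 inward rectifiers, 7 auxiliary and 2 KCNQ and ether-a-go-go genes towards cortex, and 0 towards lung among Kv, inward rectifier, tandem-pore and calcium-activated genes. Without dim genes (mean under 6.68) 6 were called towards cortex (Kv 2, inward rectifier 0, tandem-pore 1, auxiliary 0), with inward rectifier 0 and tandem-pore 1 towards lung, since dim members were then not measured. Of all genes kept in that fit, 14.7% were called towards cortex and 11.1% towards lung. Without the arrays numbered 19 and 18 the counts were 3 and 1 (towards cortex Kv 0, KCNQ and ether-a-go-go 0, inward rectifier 1, tandem-pore 0, auxiliary 0; towards lung 0 in Kv, inward rectifier, tandem-pore and calcium-activated classes). Without cortex 72 and 18 they were 8 and 3 (Kv 4 and 0, KCNQ and ether-a-go-go 0 towards cortex, inward rectifier 0 towards lung, tandem-pore 0 and 1, auxiliary 0), and without lung 22 and 18 there were 13 and 3 (Kv 0 towards lung, tandem-pore 1 and 0, auxiliary 1). These last alternatives, which leave out cortex 72 and 18 or lung 22 and 18, were chosen after seeing the data.

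The mean over probe sets gave 1 inward rectifier towards cortex, array weights 2 KCNQ and ether-a-go-go genes towards cortex, eBayes with trend and robust Kv 0 and tandem-pore 1 towards lung, and leaving out probe sets marked as shared between transcripts or genes (suffixes _x_at, _s_at and _a_at) tandem-pore 1 and calcium-activated 0 towards lung, with 4 lung calls in all. In that last setting Kcnn4 and Kcnk7, which have only probe sets with such a suffix, were not measured. In the order given, these settings called 9.93%, 12.1%, 10.7% and 10.3% of all genes measured towards cortex. Towards lung they called 8.48%, 12.3%, 8.07% and 7%. Leaving out 1 array gave 11 to 18 towards cortex and 2 to 5 towards lung, with a median of -0.07 to 0.14. Of all genes, 7.66% to 10.8% and 5.25% to 7% were then called. By class the members called were Kv 4 to 6 and 0 to 1, inward rectifier 0 to 1 towards lung, tandem-pore 1 to 3 and 0 to 2, calcium-activated 2 to 3 and auxiliary 1 to 4 towards cortex. Kcnk7 (0.60) and Kcnc2 (0.33) changed sign under pan-endothelial scaling. Over 494 further values of named members, 380 kept direction and side of the threshold, 100 lost the call, 12 moved and 2 reversed; beyond what is said of fewer genes or arrays, the cause was not tested.

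The replicate block on the sample number gave 18 towards cortex and 3 towards lung (Kv 0, inward rectifier 0, tandem-pore 1), ending the lung calls of Kcnk7, Kcnc2 and Kcnj15. In that fit 9.9% of all genes were called towards cortex and 7.38% towards lung. The 18 members called towards cortex are not the same genes as without the block. Kcna6 lost its call (adjusted p = 0.0536) and Kcnmb4 gained one (adjusted p = 0.0137). Deviations of cortex and lung arrays with the same number correlated at 0.33 (72), -0.16 (22), 0.01 (19) and 0.31 (18) across genes, and only 72 and 18 matched their own number best, so pairing is not shown. With 4 arrays per tissue and no detection call, small differences of the 56 dim members are the least certain.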

Other observations

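Kcnj8, the vascular channel of mural cells that was left aside by the rule, lay at 8.05, 7.27, 7.61 and 7.08 on cortex arrays 72, 22, 19 and 18 and at 7.81, 6.15, 6.86 and 6.48 on the lung arrays, and the tissues overlapped. Abcc9, its regulatory partner, differed by -0.35 log2 units (limma adjusted p = 0.702).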
